A study of Mus musculus with 19 samples.

Results

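Chromatin accessibility was followed between 24 h and 72 h in differentiating mouse cells kept under tumor necrosis factor (TNF). The data were 6 of the 19 ATAC-seq libraries of the series, 3 of cells after 24 h with TNF and 3 of cells after 72 h with TNF, which were selected by their sample labels. In this assay a transposase inserts adapters into open DNA, so that open regions collect more reads. Neurospheres (NSPs) were grown with EGF from the ventricular zone of wild-type C57BL/6J brains at embryonic day 14, and were turned into astrocytes as attached cells, in serum-containing medium on a poly-L-ornithine coat. TNF was given at 50 ng/ml in both groups. The remaining libraries were 3 of NSPs, 3 of untreated cells at 24 h, 3 of untreated cells at 72 h and 4 of untreated cells after 1 week, and were used here for reference. The labels state that cells came from single brains but not which libraries came from the same one, so the p-values measure the spread between these libraries, which may be partly technical.

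TNF is a cytokine that binds receptors on the cell surface and, through the IκB kinases, releases the transcription factor NF-κB into the nucleus, where it switches on chemokines, adhesion molecules and its own inhibitors. In astrocytes it is one of the signals that induce a reactive state, with complement, chemokine and antigen presentation genes. The differentiation of neural stem cells into astrocytes is otherwise driven by Notch, BMP and gp130/STAT3 signals together with the SOX9 and NFI factors, and ends in the expression of gap junction proteins, transporters and metabolic enzymes.

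The value of a peak is given in normalised reads as deposited, which in each library were whole multiples of a fixed value taken as that of 1 read. This was the lowest value in each library, held by 1011 to 2370 peaks, and whether it stands for no reads is not known. The TNF libraries held between 11337790 and 18780028 reads in peaks, with the lowest number in replicate 2 at 72 h. Spearman correlations over the peaks were 0.956 to 0.963 within 24 h TNF and 0.956 to 0.966 within 72 h TNF, and 0.885 to 0.905 between the times. The library names of both 72 h groups and of the 1 week group carry the tag Luc and those of the NSP and 24 h groups do not. The meaning of the tag is not given in the sources used here, and time and tag cannot be told apart in the comparison of 72 h with 24 h. All 10 tagged libraries held 3 reads or fewer at 1103 of 90154 peaks, which were left out. Of these, 273 lay on scaffolds outside chromosomes 1 to 19, X and Y, 783 held 3 reads or fewer in all 9 untagged libraries as well, and 212 held at least 20 reads in every untagged library. At the edge of this rule, the highest tagged library held exactly 3 reads at 91 peaks, which were left out, and exactly 4 at 33 peaks, which were kept. After a further filter on low values, 88688 peaks were tested with limma, and a peak was called at an adjusted p under 0.05.

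From 24 h to 72 h with TNF, 9135 peaks rose (10.3% of those tested) and 9914 fell (11.2%). The median log2 change of the rising peaks was 0.73 and that of the falling peaks -0.87, and the median of all peaks was -0.01. A change of more than 1 on the log2 scale was found at 2102 rising and 3804 falling peaks, so that 23.0% of the rises and 38.4% of the falls were larger than 2-fold. In 18638 of the 19049 called peaks, the 3 libraries of one time did not overlap with those of the other, as was the case for 44.0% of all peaks tested. Without replicate 1 at 72 h the rising peaks numbered 5763, and without replicate 3 at 24 h they numbered 5942. A fit of the 6 TNF libraries alone called 14400 rises and 15229 falls.

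The same interval without TNF gave 10654 higher peaks (12.0%) and 12486 lower peaks (14.1%). Of the peaks that rose with TNF, 5162 also rose in the untreated cells, which is 56.5% of the first list and 48.5% of the second, and none fell. Of the peaks that fell with TNF, 6469 fell in the untreated cells as well (65.3% and 51.8% of the lists), whereas 18 rose. The changes of the 88688 peaks had a Pearson correlation of 0.737 and a Spearman correlation of 0.720 between the treated and untreated cells. These comparisons share no library but share the change of tag, which was not tested. With total reads in peaks as the scale, the share of higher peaks among the untreated calls moved from 46.0% to 57.4%, while the corresponding share with TNF went from 48.0% to 46.2%.

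**Figure D1:**
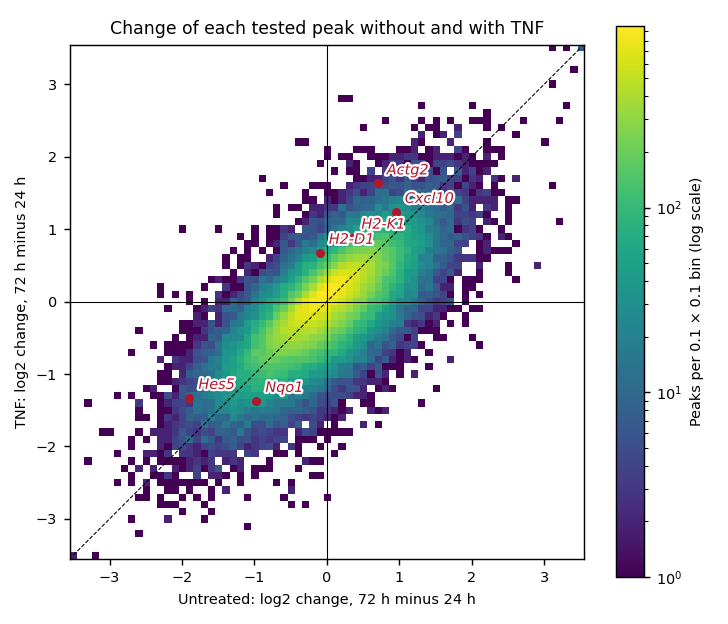
Log2 change from 24 h to 72 h of each tested peak in untreated cells (x axis) and with TNF (y axis), shown as the number of peaks per bin on a log colour scale, with values beyond 3.5 collected in the edge bins and a dashed line of equal change. Most peaks lie along the line, and 6 gene-end peaks are marked, among them H2-D1 and H2-K1 above it.

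The difference between the treated and the untreated change was then tested peak by peak, which cancels a tag effect of equal size in both. The difference is the treated minus the untreated log2 change, and is called positive or negative by its sign, whatever the size of either change. Only 1 of 88688 peaks was called (0.00113%), with a negative difference. At an unadjusted p under 0.05, 3186 peaks had a positive and 3482 a negative difference. By other tools on the same libraries, edgeR called 0 positive and 3 negative differences and DESeq2 called 18 and 67. A limma fit of only the 4 compared groups called 43 positive and 195 negative differences. The median 95% interval of a difference reached 0.69 to either side on the log2 scale, and a peak that was not called is not thereby shown to change alike in both.

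The called peak lay at chr2:172756448-172756948, 111314 bases from Bmp7, a BMP ligand. It held 225, 259 and 233 normalised reads in the 24 h TNF libraries and 148, 124.2 and 143 in the 72 h TNF libraries (log2 change -0.78 ± 0.14 (SE), adjusted p = 3.1e-04). Untreated cells moved the other way, from a mean of 121 to 205 normalised reads, and the difference was -1.54 (95% interval -1.96 to -1.12, adjusted p = 0.00213). The treated libraries of the 2 times did not overlap. Next in rank, without passing the threshold, were a peak inside Erg, an ETS factor (difference -1.68 (95% interval -2.26 to -1.11, adjusted p = 0.0721)), and one inside Sdc4, a heparan sulfate proteoglycan (difference -1.33 (95% interval -1.80 to -0.86, adjusted p = 0.0783)). The positive differences were led, without passing the threshold, by a peak 25771 bases from Snrnp48 (chr13:38230460-38230960), which held 31.8, 40.9 and 44.7 normalised reads in the 24 h TNF libraries and 148, 226 and 185 in the 72 h TNF libraries, whereas the untreated means were 20.7 and 15.5. Its difference was 2.58 (95% interval 1.63 to 3.54, adjusted p = 0.12). A peak near Klhl42 (1.44 (95% interval 0.89 to 1.98, adjusted p = 0.12)) and one inside Pcdh15 (1.02 (95% interval 0.62 to 1.42, adjusted p = 0.14)) followed. Their untreated log2 changes were -2.11 and -1.21, and those with TNF -0.67 and -0.19, of which the last was not called.

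Neighbouring steps of the time course within the same tag, both of untreated cells, were used to place these peaks. The step from NSPs to 24 h is untagged on both sides and that from 72 h to 1 week is tagged on both. The series holds no TNF library at 1 week. From NSPs to 24 h, 24.2% of all peaks rose and 23.1% fell. Among the peaks that rose with TNF from 24 h to 72 h, 3533 rose in this untreated step (38.7% of them, 16.5% of the early rises) and 1531 fell (16.8%). From 72 h to 1 week, 22.6% of all peaks rose and 16.2% fell. Among the TNF rises, 3899 rose in this last untreated step as well (42.7% of them, 19.5% of the late rises) and 322 fell (3.53%). The peaks that fell with TNF were divided more evenly by the first step, with 2700 early rises (27.2%) and 2605 early falls (26.3%). In the last step 2809 of them fell (28.3%) and 1755 rose (17.7%).

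The median level of the rising peaks was 80.4 to 87.0 normalised reads in the NSP libraries, 105 to 108 at 24 h, 106 to 109 at 24 h with TNF, 164 to 169.9 at 72 h, 179 to 188 at 72 h with TNF and 211 to 214 at 1 week. The falling peaks held 137 to 155 in NSPs, 146 to 153 at 24 h and 139 to 146 at 24 h with TNF, and then 84.9 to 87.9 at 72 h, 74.2 to 75.6 with TNF and 72.5 to 79.2 at 1 week. The levels of the TNF libraries chose these peaks and are a description. Scaled to total reads, the last step gave 7959 rises and 30031 falls instead of 20023 and 14357, with a median of all peaks of -0.32. Of the TNF rises 1904 then rose in this step, and of the TNF falls 5108 fell. With TMM factors the last step gave 15732 rises and 18619 falls. The first step gave 26051 rises and 12313 falls under total reads instead of 21456 and 20455. Without replicates 2 or 3 at 24 h or replicate 1 at 72 h, the falls shared with the first step numbered 1720, 1717 and 1624, and without replicate 3 at 24 h those shared with the last step numbered 1818.

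**Figure D2:**
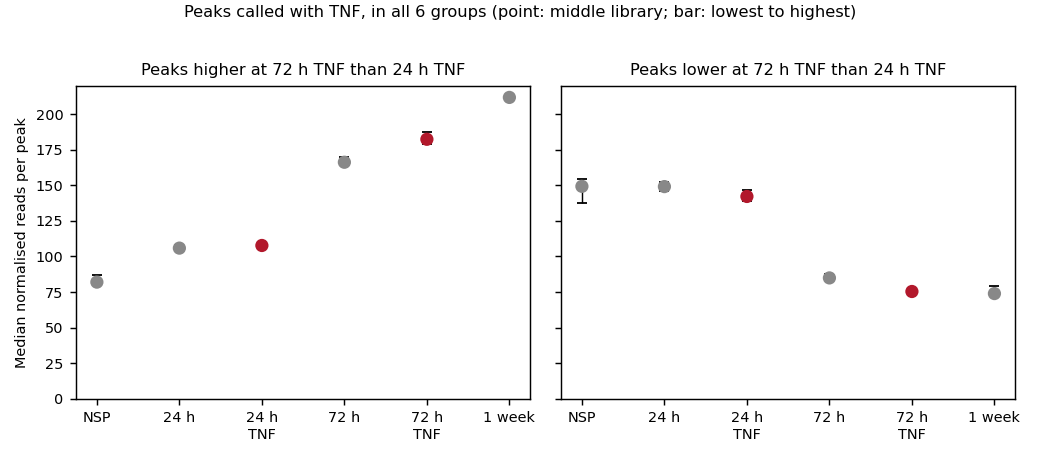
Median normalised reads per peak in each of the 6 groups for the 9135 peaks that rose (left) and the 9914 that fell (right) with TNF from 24 h to 72 h, where points give the middle library, bars the lowest and highest library, and red points the TNF groups. The rising peaks were lowest in NSPs and highest at 1 week, and the falling peaks lay at 74.2 to 87.9 in all 72 h libraries.

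The shares of called peaks were then given by distance from genes. A gene end is the RefSeq start of a protein-coding gene, or either end of the gene where no start was given, and a gene-end peak has its centre within 1 kb of one. Of 13441 gene-end peaks, 10.4% rose with TNF (1403) and 9.76% fell (1312). Between 1 and 5 kb 13.7% rose and 8.94% fell, and these shares passed through 10.4% and 10.6% between 20 and 50 kb. Beyond 200 kb 7.70% rose and 17.2% fell, with a median log2 change of -0.19 over 8875 peaks. Untreated cells gave 8.82% higher and 19.9% lower peaks beyond 200 kb. The median level of a peak over the TNF libraries was 349 normalised reads within 1 kb and 62.4 beyond 200 kb. With TNF, falls outnumbered rises in the classes beyond 20 kb and rises outnumbered falls in the nearer ones.

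At gene ends the untreated cells gave other shares, with 7.22% higher and 23.3% lower. In each library the gene-end peaks had a higher mean on the log2 scale than all other peaks, by 1.87, 1.89 and 1.81 at 24 h with TNF and by 1.87, 1.87 and 1.97 at 72 h with TNF. The difference of the means was 0.05 (two-sided exact permutation test, p = 0.6, where 0.1 is the smallest p that 3 against 3 libraries allow). The untreated libraries gave 1.91, 2.01 and 1.78 at 24 h and 1.74, 1.80 and 1.84 at 72 h, a difference of -0.11 (exact permutation test, p = 0.3). The libraries of the 2 times overlapped in both cases. Centring the libraries by loess took the TNF difference to -0.01.

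**Figure D3:**
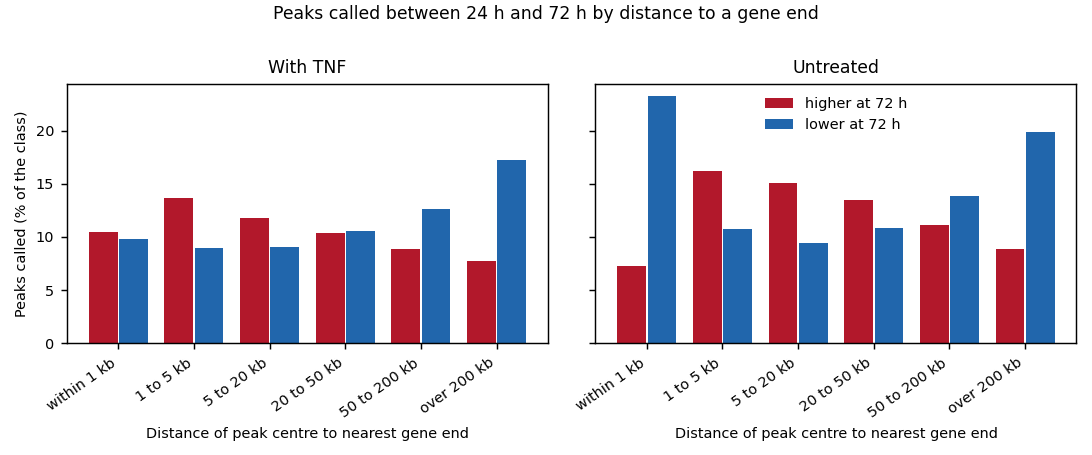
Share of tested peaks called higher (red) or lower (blue) at 72 h than at 24 h, in % of all peaks of the distance class, with TNF (left) and untreated (right), by the distance of the peak centre to the nearest gene end. The share of falling peaks beyond 200 kb was 17.2% with TNF and 19.9% without, and within 1 kb it was 9.76% with TNF and 23.3% without.

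Among single peaks, the smallest p-values of the rises included 4 peaks on patch scaffolds of the assembly. The first held 1342, 1407 and 1497 normalised reads at 72 h with TNF and 1 read in each 24 h TNF library. All 4 stood at 1 read in all 9 untagged libraries and at more than 1 read in all 10 tagged ones, in the untreated cells as with TNF. Their calls follow the tag in every library and are not described further as changes with time. In all, 3803 of the tested peaks lay on such scaffolds or within 200 kb of a peak left out by the rule, and 766 of them were called. Without them the rises numbered 8757 and the falls 9571.

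The remaining 6 rises of the rule lay on chromosomes. A peak 5888 bases from Jade2, which encodes a subunit of histone acetyltransferase complexes (chr11:51807310-51807810), held 121, 106 and 89.3 normalised reads in the 24 h TNF libraries and 364, 349 and 362 in the 72 h TNF libraries (log2 change 1.77 ± 0.15 (SE), adjusted p = 4.1e-09), a rise of 3.40-fold. Peaks were named by this rule only where the libraries of the times did not overlap. The level at the Jade2 peak was a mean of 19.97 in NSPs and 1010.5 at 1 week. A peak near Kntc1, a kinetochore gene, and 26018 bases from Hcar2 (chr5:123837302-123837802) held 111, 85.1 and 65.4 at 24 h and 389, 412 and 317 at 72 h (log2 change 2.11 ± 0.18 (SE), adjusted p = 6.6e-09). A peak inside Cfap61, a cilia gene (chr2:146062486-146062986), held 179.5, 257 and 196 at 24 h and 759, 679.9 and 696 at 72 h (log2 change 1.76 ± 0.16 (SE), adjusted p = 1.0e-08). The other 3 lay inside Elp6, which encodes a subunit of the Elongator complex (1.72), inside Tatdn3 (1.53) and 163566 bases from Tmx1, a thioredoxin-related membrane protein of the endoplasmic reticulum (1.73), where the numbers are log2 changes.

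All 6 also rose in untreated cells, by 1.12 to 1.88 on the log2 scale, and rose again there from 72 h to 1 week by 0.35 to 1.39. Of these 6 peaks 5 rose from NSPs to 24 h without TNF, and that of Cfap61 had a log2 change of 0.10 in that step. At all 6 every tagged library lay above every untagged one, so that time and tag cannot be told apart there. The next 4 chromosomal peaks, named after their values had been seen, included the gene-end peak of Hs3st3a1, a heparan sulfate sulfotransferase (chr11:64434981-64435481), with 222, 194 and 231 at 24 h and 546, 523 and 544 at 72 h (log2 change 1.32 ± 0.12 (SE), adjusted p = 2.0e-08). A peak 1673 bases from Wnt5a, a ligand of non-canonical Wnt signalling (chr14:28502620-28503120), held 189, 208 and 186 at 24 h and 489, 482 and 459.7 at 72 h (log2 change 1.29 ± 0.12 (SE), adjusted p = 2.1e-08). Its log2 change from NSPs to untreated cells at 24 h was -1.32. The others lay inside Runx2, a Runt factor (1.33), and 15137 bases from Gm266 (1.29). At both, every tagged library lay above every untagged one.

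The falling peaks of the same rule were led by one at chr2:142988662-142989162, 74157 bases from Snrpb2, a spliceosome gene. It held 369.6, 403 and 427 normalised reads in the 24 h TNF libraries and 88.5, 102 and 67.2 in the 72 h TNF libraries (log2 change -2.22 ± 0.15 (SE), adjusted p = 1.3e-10). The untreated change there was -1.37 and the difference -0.86 (95% interval -1.30 to -0.41, adjusted p = 0.3). A peak 9438 bases from Cst3, which encodes the protease inhibitor cystatin C (chr2:148884700-148885200), held 336, 382 and 321 at 24 h and 61.7, 78.3 and 57.6 at 72 h (log2 change -2.39 ± 0.17 (SE), adjusted p = 2.1e-10), a fall of 5.23-fold. Its mean in untreated cells at 1 week was 33.1. A peak 115611 bases from Tph2, an enzyme of serotonin synthesis (chr10:115069161-115069661), held 366, 399.7 and 419.5 at 24 h and 57.2, 42.9 and 45.6 at 72 h (log2 change -3.01 ± 0.23 (SE), adjusted p = 1.2e-09). That the libraries did not overlap between the times was a condition of the choice of these peaks.

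A peak inside Fbp1, a gluconeogenic enzyme, fell with a log2 change -1.64 ± 0.12 (SE), adjusted p = 8.7e-10, and one inside Plec, which encodes the cytoskeletal linker plectin, with a log2 change -1.47 ± 0.12 (SE), adjusted p = 1.3e-09. The Plec peak (chr15:76208314-76208814) held 1372, 1440.5 and 1241 at 24 h and 438, 491 and 534 at 72 h. Its log2 change from NSPs to untreated cells at 24 h was 2.40. Peaks inside Zfp704 (-1.79) and Cfap20dc (-1.76) and 33107 bases from 4930571K23Rik (-2.35) also fell on the log2 scale. The last 2 of the 10 lay 57768 and 11702 bases from Ctla4, within 200 kb of peaks left out by the rule. The first of them held 384, 390.0 and 514 at 24 h and 0.894, 4.43 and 3.60 at 72 h, and 0.779 to 6.17 in all tagged untreated libraries against 95.02 to 548 in the untagged ones. Outside such stretches the next 2 peaks, named after their values had been seen, lay near Slbp, a histone mRNA binding protein (-2.86), and inside Syn3, a synapsin (-2.62). Both rose from 72 h to 1 week in untreated cells, by 2.66 and 1.36. All 10 falls of the rule fell in untreated cells too, with log2 changes of -2.70 to -1.07 at the peaks away from Ctla4. The 2 peaks near Ctla4 had untreated log2 changes of -6.69 and -2.48, and at both every tagged library lay below every untagged one. The same held at the peaks of Snrpb2, Cst3, Tph2, Fbp1 and 4930571K23Rik, so that time and tag cannot be told apart there.

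Peaks were then counted per gene locus, that is, inside a gene or within 50 kb of it. Of 2566 loci with at least 8 tested peaks, the median locus had 9.09% of its peaks called higher and 9.09% called lower. Scd2, a stearoyl-CoA desaturase of fatty acid synthesis, had the largest share, with 7 of 10 peaks higher and none lower. Its strongest peak (chr19:44295174-44296166) held 327, 405 and 376 normalised reads in the 24 h TNF libraries and 556, 584 and 553 in the 72 h TNF libraries (log2 change 0.62 ± 0.13 (SE), adjusted p = 0.00134), without overlap. Cyp1b1, a cytochrome P450, followed with 6 of 9, including a gene-end peak with 496, 551 and 496 at 24 h and 860.1, 958 and 988 at 72 h (log2 change 0.86 ± 0.13 (SE), adjusted p = 1.8e-05). Ccn5, a matricellular protein, had 5 of 8, and its strongest peak held 150.3, 191 and 138 at 24 h and 375, 412 and 386 at 72 h (log2 change 1.30 ± 0.15 (SE), adjusted p = 9.4e-07). The Polycomb gene Cbx7 had 5 of 8, led by a peak with 149, 149.8 and 163 at 24 h and 370.1, 368 and 356 at 72 h (log2 change 1.24 ± 0.15 (SE), adjusted p = 2.1e-06). The other loci were Rplp1 (5 of 8 higher, 1 lower), the adhesion gene Ninj2 (7 of 12), Lgi1 (5 of 9) and Bdh1, an enzyme of ketone body metabolism (5 of 9). The untreated cells had 7, 6, 4 and 5 higher peaks at Scd2, Cyp1b1, Ccn5 and Cbx7, and 8 at Lgi1.

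The loci with the largest share of falling peaks were led by Gria4, a subunit of AMPA-type glutamate receptors, with 7 of 10, where the median locus had 9.09% of its peaks lower. The gene-end peak of Gria4 held 416, 474 and 456 normalised reads in the 24 h TNF libraries and 243, 279 and 234 in the 72 h TNF libraries (log2 change -0.83 ± 0.14 (SE), adjusted p = 9.7e-05). The libraries of the 2 times did not overlap. Phactr3 followed with 6 of 9, and Epha3, an ephrin receptor, had 5 of 9, with a leading peak of 109.7, 116 and 111 at 24 h and 22.4, 36.95 and 42.01 at 72 h (log2 change -1.75 ± 0.28 (SE), adjusted p = 5.7e-05). Wnt4, a Wnt ligand, had 5 of 9, and its leading peak held 223.7, 242 and 213 at 24 h and 54.5, 65.03 and 68.4 at 72 h (log2 change -1.84 ± 0.16 (SE), adjusted p = 1.1e-08). That peak rose by 1.24 from 72 h to 1 week in untreated cells. Enpp2, which encodes autotaxin, had 5 of 9, the kinase gene Akt1 5 of 8, the exchange factor Fgd4 5 of 9 and the ubiquitin ligase Marchf1 6 of 11, beside 1 that rose. Untreated cells had 3 falling peaks at Gria4, 8 at Phactr3, 4 at Epha3 and 5 at Wnt4.

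Genes of inflammation and of the lists that follow were examined by their gene-end peaks. The background for all lists was 10.4% higher and 9.76% lower gene-end peaks and a median log2 change of 0.02. For interferon and antigen presentation genes, 7 of 16 gene-end peaks rose and 0 fell, with a median log2 change of 0.46 and an untreated median of 0.23. The 7 peaks belong to 8 genes because Psmb9 and Tap1, the immunoproteasome subunit and peptide transporter, share one. H2-K1, a class I antigen presenting molecule (chr17:34000118-34000618), held 263, 204 and 242 normalised reads in the 24 h TNF libraries and 456, 399 and 449 in the 72 h TNF libraries (log2 change 0.88 ± 0.15 (SE), adjusted p = 1.1e-04). Its untreated change was 0.35 and the difference 0.53 (95% interval 0.10 to 0.96, adjusted p = 0.59). H2-D1, of the same family (chr17:35262777-35263277), held 264, 248 and 292 at 24 h and 434, 401 and 449 at 72 h (log2 change 0.67 ± 0.16 (SE), adjusted p = 0.00417), where the untreated change was -0.10 and the difference 0.77 (95% interval 0.30 to 1.25, adjusted p = 0.45). Both were higher in every 72 h TNF library than in every 24 h TNF library, but neither difference passed the adjustment, and reads of these near-identical family members may be shared between them.

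Tapbp, which loads peptides on class I molecules, held 152, 182 and 171 at 24 h and 323.6, 275 and 252 at 72 h (log2 change 0.74 ± 0.17 (SE), adjusted p = 0.00226), and Nlrc5, the transactivator of class I genes, held 136, 134 and 144 at 24 h and 211, 219 and 202 at 72 h (log2 change 0.60 ± 0.14 (SE), adjusted p = 0.00257). The shared peak of Psmb9 and Tap1 rose with a log2 change 0.43 ± 0.11 (SE), adjusted p = 0.00494. Ifit1, an interferon-induced antiviral gene (chr19:34640571-34641071), held 94.6, 85.1 and 85.2 at 24 h and 175, 143 and 149 at 72 h (log2 change 0.81 ± 0.22 (SE), adjusted p = 0.00895). Irf9, an interferon regulatory factor, had a log2 change 0.48 ± 0.18 (SE), adjusted p = 0.0487. The calls at Ifit1 and Irf9 were lost without at least 1 of the 6 libraries (for Ifit1 without replicate 1 at 72 h, adjusted p = 0.0525), and that at Irf9 also under total reads. In untreated cells the changes were 0.66 at Tapbp, 0.60 at Nlrc5, 0.75 at Ifit1 and 0.71 at Irf9. Over the loci of this list, 8 of 38 locus peaks rose (21.1%) and 1 fell (2.63%), beside 10.3% and 11.2% of all tested peaks.

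Among NF-κB regulators, 4 of 14 gene-end peaks rose and 0 fell, with a median log2 change of 0.17 and an untreated median of 0.10. Ikbke, a kinase related to the IκB kinases (chr1:131279201-131279701), held 67.2, 43.1 and 30.1 normalised reads in the 24 h TNF libraries and 145, 127 and 113 in the 72 h TNF libraries (log2 change 1.50 ± 0.25 (SE), adjusted p = 8.3e-05), and its untreated change was 1.20. The subunit Relb (0.37), the inhibitor Nfkbib (0.35) and the deubiquitinase Cyld (0.38) rose by less on the log2 scale, and these 3 calls were lost without at least 1 library. The inhibitor gene Nfkbia held 868, 959.9 and 1037 at 24 h and 837, 929.7 and 969.7 at 72 h and was not called (log2 change -0.07 ± 0.11 (SE), adjusted p = 0.7), although 3 of 12 peaks of its locus rose. Among cytokines and chemokines, 1 of 12 gene-end peaks rose and 1 fell, with a median log2 change of 0.21 and an untreated median of 0.23. Cxcl10, a chemokine for T cells (chr5:92348735-92349235), held 171, 109.9 and 141 normalised reads in the 24 h TNF libraries and 334, 304 and 347 in the 72 h TNF libraries (log2 change 1.24 ± 0.22 (SE), adjusted p = 2.0e-04), a rise of 2.36-fold. Its untreated means were 38.2 and 77.8, and all 72 h TNF values exceeded those of the other libraries at 24 h and 72 h. Ccl7, a monocyte chemokine, fell with a log2 change of -0.39, a call that was lost without at least 1 library. Over the loci, 13 of 85 locus peaks rose (15.3%) and 2 fell (2.35%) for NF-κB regulators and 5 of 77 locus peaks rose (6.49%) and 4 fell (5.19%) for cytokines and chemokines, beside 10.3% and 11.2% of all tested peaks.

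Among reactive astrocyte genes, 4 of 18 gene-end peaks rose and 0 fell, with a median log2 change of 0.17 and an untreated median of 0.20. C3, the central complement component (chr17:57227906-57228406), held 71.6, 82.96 and 97.6 normalised reads in the 24 h TNF libraries and 259, 234 and 226 in the 72 h TNF libraries (log2 change 1.51 ± 0.36 (SE), adjusted p = 0.0033). The untreated means were 10.99 and 47.5, a log2 change of 2.17. Serping1, the C1 inhibitor, held 56.6, 70.03 and 67.5 at 24 h and 111, 119.7 and 110.4 at 72 h (log2 change 0.81 ± 0.22 (SE), adjusted p = 0.00905). Osmr, the oncostatin M receptor (0.51), and Emp1 (0.40) were called as well, but lost the call without at least 1 library and on the scale of total reads. Lcn2, which encodes lipocalin 2, held 64.6, 63.6 and 55.04 at 24 h and 105, 79.8 and 106 at 72 h without passing the test (log2 change 0.65 ± 0.42 (SE), adjusted p = 0.28). Over the loci of this list, 13 of 93 locus peaks rose (13.98%) and 11 fell (11.8%), beside 10.3% and 11.2% of all tested peaks. The locus of Cd44, a hyaluronan receptor, had 5 of its 11 peaks lower and none higher, and the only peak at Ptx3, a pentraxin of innate immunity, fell with a log2 change of -1.28.

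The 250 bases before the RefSeq start are shown for 3 of these genes, whose peaks cover the start, with matches to NF-κB (GGG and CC with any 5 bases between), AP-1 (TGANTCA), IRF (GAAA repeated after any 2 bases) and STAT (TTCNNNGAA) on either strand in capitals (5′ to 3′ on the strand of the gene, build GRCm38.p6, sequences from RefSeq). Cxcl10 is shown at chr5:92348890-92349139, minus strand, H2-D1 at chr17:35262844-35263093, plus strand and Ifit1 at chr19:34640639-34640888, plus strand.
Cxcl10: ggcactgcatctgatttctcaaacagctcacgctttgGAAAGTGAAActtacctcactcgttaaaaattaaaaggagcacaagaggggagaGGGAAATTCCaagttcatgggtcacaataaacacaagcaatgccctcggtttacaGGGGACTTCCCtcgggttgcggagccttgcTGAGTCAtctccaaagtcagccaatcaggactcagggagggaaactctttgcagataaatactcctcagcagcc
H2-D1: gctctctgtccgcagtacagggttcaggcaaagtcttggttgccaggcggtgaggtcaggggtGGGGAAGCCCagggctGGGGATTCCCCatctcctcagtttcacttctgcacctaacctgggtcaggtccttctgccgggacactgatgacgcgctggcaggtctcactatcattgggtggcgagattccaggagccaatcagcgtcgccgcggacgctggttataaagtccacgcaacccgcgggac
Ifit1: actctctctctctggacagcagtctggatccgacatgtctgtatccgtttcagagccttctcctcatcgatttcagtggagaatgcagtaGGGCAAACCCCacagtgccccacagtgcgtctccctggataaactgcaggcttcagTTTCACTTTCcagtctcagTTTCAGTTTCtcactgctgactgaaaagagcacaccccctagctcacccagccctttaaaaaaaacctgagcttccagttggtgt
In Cxcl10 the capitals are, in order, an IRF match starting 213 bases before the start, an NF-κB match at 159, overlapping NF-κB matches at 104 and 103, and an AP-1 match at 74. H2-D1 holds NF-κB matches at 187 and, overlapping, at 171 and 170. Ifit1 holds overlapping NF-κB matches at 160 and 159 and IRF matches at 104 and 85. Other called genes of these lists differed in this. The same stretch of Ikbke, Tapbp, Nfkbib and Irf9 held no match to these patterns, and that of H2-K1, Psmb9, Tap1, Cyld, Osmr, C3 and Emp1 held matches. The NF-κB pattern is loose and occurred in 70.4% of 8698 promoters of 300 bases under a peak, whereas IRF occurred in 2.46%.

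Genes of the astrocyte programme changed in both directions. For astrocyte maturation, 6 of 20 gene-end peaks rose and 5 fell, with a median log2 change of -0.03 and an untreated median of -0.04. Gja1, the gap junction protein connexin 43 (chr10:56377045-56377545), held 82.2, 78.6 and 86.2 normalised reads in the 24 h TNF libraries and 175, 192 and 182 in the 72 h TNF libraries (log2 change 1.14 ± 0.20 (SE), adjusted p = 1.9e-04), and 0.92 was its untreated change. Gpld1, a phospholipase, held 233, 217 and 220.2 at 24 h and 428, 318 and 374 at 72 h (log2 change 0.73 ± 0.14 (SE), adjusted p = 4.6e-04), and Mlc1, a membrane protein of astrocyte endfeet, 1352, 1194 and 1295 at 24 h and 1768, 1973 and 2024 at 72 h (log2 change 0.58 ± 0.13 (SE), adjusted p = 0.00152). Cbs, an enzyme of sulfur amino acid metabolism (0.64), Clu, the chaperone clusterin (0.53), and Atp1b2, a sodium pump subunit (0.49), rose as well on the log2 scale, the last only with all 6 libraries.

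The astrocyte genes that fell were led by Sparcl1, a secreted synapse-promoting protein (chr5:104113410-104113910), with 138, 81.9 and 99.7 at 24 h and 32.2, 32.5 and 36.01 at 72 h (log2 change -1.61 ± 0.28 (SE), adjusted p = 1.8e-04). Slc4a4, a bicarbonate transporter, held 485, 503 and 557 at 24 h and 337, 315 and 353 at 72 h (log2 change -0.62 ± 0.12 (SE), adjusted p = 5.4e-04). Aldh1l1, a folate enzyme used as an astrocyte marker (-1.14), and S100b (-0.56) fell too, and both calls were lost without at least 1 library. Gfap, the intermediate filament protein of astrocytes, held 348, 322 and 436 at 24 h and 243, 257 and 239 at 72 h, without overlap, but was not called (log2 change -0.57 ± 0.22 (SE), adjusted p = 0.0619), while its untreated change was 0.11. Over the astrocyte loci, 26 of 156 locus peaks rose (16.7%) and 16 fell (10.3%), beside 10.3% and 11.2% of all tested peaks. The glutamate transporter locus Slc1a2 had 5 of 12 peaks higher and none lower. All 11 called gene-end peaks of this list had a change of the same sign in untreated cells, where that of Atp1b2 was not called.

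**Figure D4:**
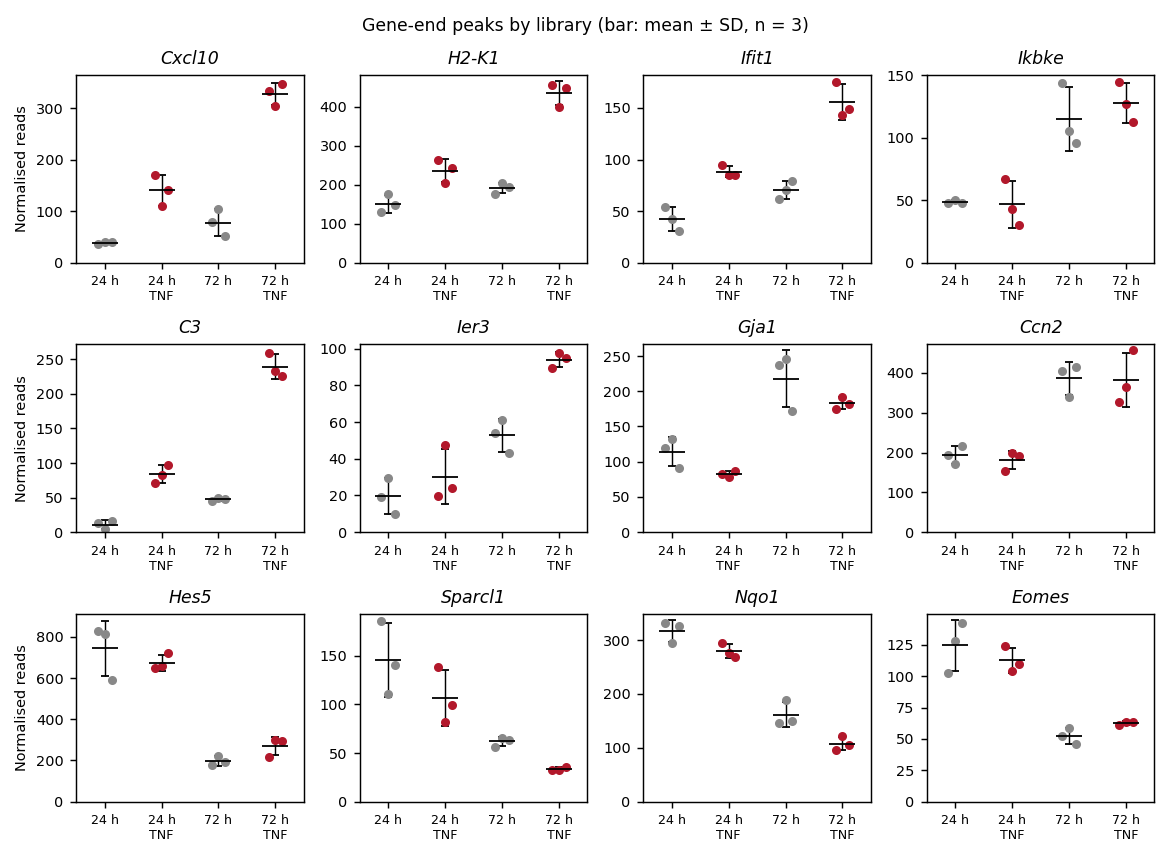
Normalised reads at the gene-end peaks of 12 genes in untreated (grey) and TNF (red) libraries at 24 h and 72 h, with points for the libraries and bars for the mean ± SD (n = 3). The 8 genes of the upper 2 rows rose with TNF from 24 h to 72 h and the 4 genes of the lowest row fell, in each case without overlap between the TNF libraries of the 2 times.

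For gliogenic factors, 2 of 17 gene-end peaks rose and 2 fell, beside 10.4% and 9.76% of all gene-end peaks. The median log2 change was -0.01 and the untreated median -0.17. Hes5, an effector of Notch that keeps progenitors undifferentiated (chr4:154960534-154961034), held 647, 659 and 719.7 normalised reads in the 24 h TNF libraries and 218, 299 and 295 in the 72 h TNF libraries (log2 change -1.33 ± 0.16 (SE), adjusted p = 1.2e-06), a fall of 2.51-fold. Its mean was 1976 in NSPs, 744 and 198 in untreated cells at 24 h and 72 h and 92.96 at 1 week, and the difference between the treated and untreated change was 0.57 (95% interval 0.11 to 1.03, adjusted p = 0.59). Lifr, the leukaemia inhibitory factor receptor (-0.50), fell, and Sox9 (0.42) and Id1, a BMP target (0.33), rose on the log2 scale, but these 3 calls were lost without at least 1 library. Over the loci of the list, 40 of 285 locus peaks rose (14.04%) and 19 fell (6.67%), beside 10.3% and 11.2% of all tested peaks. The locus of Zbtb20, a zinc finger factor of astrocyte formation, had 11 of 52 peaks higher and none lower, Sox9 had 4 of 12 and Sox2 3 of 8 higher, and Rfx4 had 3 of 20 lower.

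The promoters of Gja1 (chr10:56377050-56377299, plus strand) and Hes5 (chr4:154960673-154960922, plus strand) are shown in the same way, as one that rose and one that fell.
Gja1: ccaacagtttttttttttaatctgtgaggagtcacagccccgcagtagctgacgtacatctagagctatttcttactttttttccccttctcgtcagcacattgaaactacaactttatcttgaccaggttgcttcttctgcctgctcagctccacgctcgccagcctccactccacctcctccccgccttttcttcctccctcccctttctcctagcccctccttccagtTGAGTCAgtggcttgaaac
Hes5: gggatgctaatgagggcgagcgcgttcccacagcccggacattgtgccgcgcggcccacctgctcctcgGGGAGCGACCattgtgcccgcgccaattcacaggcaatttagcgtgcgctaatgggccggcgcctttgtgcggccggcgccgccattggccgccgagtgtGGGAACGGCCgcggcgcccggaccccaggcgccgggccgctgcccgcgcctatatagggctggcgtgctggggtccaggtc
Gja1 holds an AP-1 match starting 19 bases before the start, and Hes5 holds NF-κB matches at 181 and 81.

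For progenitor and neurogenic genes, 0 of 21 gene-end peaks rose and 1 fell, beside 10.4% and 9.76% of all gene-end peaks. The median log2 change was -0.18 and the untreated median -0.28. The one that fell was Eomes, a factor of intermediate neuronal progenitors (chr9:118478851-118479351), with 123.8, 105 and 110.1 normalised reads in the 24 h TNF libraries and 60.8, 63.6 and 63.6 in the 72 h TNF libraries (log2 change -0.83 ± 0.19 (SE), adjusted p = 0.00245). For proliferation, 5 of 20 gene-end peaks rose and 2 fell, with a median log2 change of 0.02 and an untreated median of -0.16. Cdk1, the mitotic kinase, held 415, 369.5 and 381 at 24 h and 489, 549.8 and 552 at 72 h (log2 change 0.45 ± 0.10 (SE), adjusted p = 0.00291), and Top2a (0.49), Aurkb (0.56), Mcm5 (0.37) and Mybl2 (0.36) rose on the log2 scale. The cyclin E genes Ccne1 and Ccne2 fell (both -0.44). Of these 7 calls, that of Cdk1 held without each single library. The proliferation markers Mki67, with 349, 365 and 336 at 24 h and 260.2, 302 and 318 at 72 h (log2 change -0.26 ± 0.12 (SE), adjusted p = 0.13), and Ccnb1 (log2 change -0.07 ± 0.11 (SE), adjusted p = 0.66) were not called. Over the loci, 12 of 127 locus peaks rose (9.45%) and 12 fell (9.45%) for progenitor and neurogenic genes and 10 of 66 locus peaks rose (15.2%) and 8 fell (12.1%) for proliferation, beside 10.3% and 11.2% of all tested peaks.

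**Figure D5:**
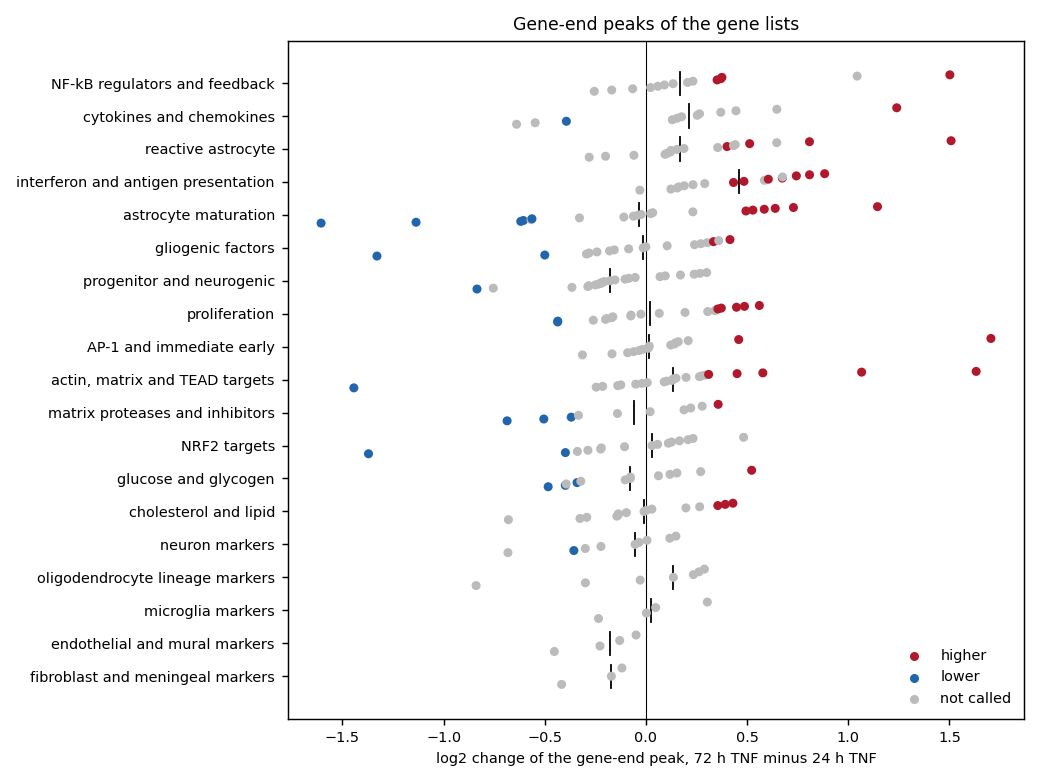
Log2 change from 24 h to 72 h with TNF (x axis) of each gene-end peak of 19 gene lists (y axis), with called peaks in red (higher) and blue (lower), other peaks in grey and the median of the list as a black line. The interferon and antigen presentation list had 7 rises and no fall, and the astrocyte maturation list 6 rises and 5 falls.

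Among immediate early genes and the AP-1 family, 2 of 16 gene-end peaks rose and 0 fell, beside 10.4% and 9.76% of all gene-end peaks. The median log2 change was 0.02 and the untreated median 0.14. Ier3, an immediate early NF-κB target (chr17:35821327-35821827), held 19.5, 47.4 and 23.9 normalised reads in the 24 h TNF libraries and 89.4, 97.6 and 94.8 in the 72 h TNF libraries (log2 change 1.70 ± 0.41 (SE), adjusted p = 0.00361), and the small Maf factor Mafk rose by 0.46 on the log2 scale, a call lost without at least 1 library. For actin, matrix and TEAD target genes, 5 of 23 gene-end peaks rose and 1 fell, with a median log2 change of 0.13 and an untreated median of 0.03. Ccn2, a matricellular TEAD target (chr10:24595190-24595690), held 155, 199 and 190.0 normalised reads in the 24 h TNF libraries and 326, 364 and 457 in the 72 h TNF libraries (log2 change 1.07 ± 0.17 (SE), adjusted p = 4.3e-05), against an untreated change of 0.99. Actg2, a smooth muscle actin, held 15.03, 14.01 and 10.4 at 24 h and 42.02, 44.3 and 40.8 at 72 h (log2 change 1.63 ± 0.32 (SE), adjusted p = 5.1e-04). Col1a1 (0.58), Thbs1 (0.45) and Wwtr1, which encodes TAZ (0.31), rose and Tagln, an actin-binding protein (-1.44), fell on the log2 scale, with calls lost without at least 1 library. Over the loci, 9 of 88 locus peaks rose (10.2%) and 9 fell (10.2%) for the AP-1 list and 25 of 186 locus peaks rose (13.4%) and 12 fell (6.45%) for the actin and TEAD list, beside 10.3% and 11.2% of all tested peaks.

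Among matrix proteases and inhibitors, 1 of 10 gene-end peaks rose and 3 fell, with a median log2 change of -0.06 and an untreated median of -0.11. Adamts1, a secreted protease, held 754, 696 and 751 normalised reads in the 24 h TNF libraries and 470.3, 531 and 552 in the 72 h TNF libraries (log2 change -0.50 ± 0.11 (SE), adjusted p = 0.00157), and 4 of 6 peaks of its locus fell. Adamts4 (-0.37) and Plau, which encodes urokinase (-0.69), fell and Plat, the tissue plasminogen activator (0.36), rose on the log2 scale, with calls lost without at least 1 library. Over the loci, 14 of 82 locus peaks rose (17.1%) and 15 fell (18.3%), beside 10.3% and 11.2% of all tested peaks.

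For targets of NRF2, the factor of the oxidative stress response, 0 of 15 gene-end peaks rose and 2 fell, beside 10.4% and 9.76% of all. The median log2 change was 0.03 and the untreated median -0.15. Nqo1, a quinone reductase (chr8:107402999-107403499), held 294, 276 and 268 normalised reads in the 24 h TNF libraries and 96.6, 121 and 106 in the 72 h TNF libraries (log2 change -1.37 ± 0.18 (SE), adjusted p = 3.0e-06), a fall of 2.59-fold, with -0.97 in untreated cells. Gclc, the enzyme of the first step of glutathione synthesis, had a log2 change of -0.40, and its call was lost without at least 1 library. Over the loci, 4 of 63 locus peaks rose (6.35%) and 5 fell (7.94%), beside 10.3% and 11.2% of all tested peaks. The promoter of Nqo1 (chr8:107403206-107403455, minus strand) holds none of the 4 patterns set in capitals above.
Nqo1: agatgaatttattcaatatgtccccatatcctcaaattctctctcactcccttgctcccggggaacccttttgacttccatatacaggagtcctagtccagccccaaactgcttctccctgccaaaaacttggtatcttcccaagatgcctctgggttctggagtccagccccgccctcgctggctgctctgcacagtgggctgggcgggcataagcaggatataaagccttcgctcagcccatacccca

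For glucose and glycogen genes, 1 of 13 gene-end peaks rose and 3 fell, with a median log2 change of -0.08 and an untreated median of -0.27. Gys1, the glycogen synthase outside the liver, held 1074, 1072 and 979 at 24 h and 1343, 1519 and 1638 at 72 h (log2 change 0.52 ± 0.12 (SE), adjusted p = 0.00279). The branching enzyme Gbe1 (-0.48), hexokinase Hk2 (-0.40) and Lmbrd1 (-0.34) fell on the log2 scale, with calls lost without at least 1 library. Over the glucose and glycogen loci, 8 of 87 locus peaks rose (9.20%) and 10 fell (11.5%), beside 10.3% and 11.2% of all tested peaks. For cholesterol and lipid genes, 3 of 15 gene-end peaks rose and 0 fell, with a median log2 change of -0.01 and an untreated median of -0.02. These were Srebf1 (0.43) and Srebf2 (0.36), the factors of lipid synthesis, and Scd2 (0.39), and each call was lost without at least 1 library. The libraries of the 2 times overlapped at Srebf1. Over these loci 19 of 106 locus peaks rose (17.9%) and 4 fell (3.77%), beside 10.3% and 11.2% of all tested peaks. Of the rises 7 lay at Scd2, and Ppara, a nuclear receptor of fatty acid oxidation, had 5 higher and 2 lower of 14.

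Markers of other cells that such cultures could hold were followed as well. Of neuron markers, 0 of 9 gene-end peaks rose and 1 fell, with a median log2 change of -0.05 and an untreated median of -0.40, the fall being that of Elavl4, whose call was lost without at least 1 library. The neuron markers summed to 2080.1 to 2493 normalised reads per library at 24 h and 2071 to 2262 at 72 h. None of the 7 oligodendrocyte, 4 microglia, 4 endothelial and mural and 3 fibroblast and meningeal gene-end peaks was called. For oligodendrocytes the summed values were 1859.5 to 1959.6 at 24 h, and 1848 to 2079.9 at 72 h. For microglia the sums were 882 to 911 and 927 to 943, with gene-end peaks at P2ry12, Tmem119 and Spi1 among them, and every 72 h library was above every 24 h library. For endothelial and mural cells they were 621 to 695 and 503 to 613, and for fibroblasts 979.8 to 1081 and 843 to 939, both lower at 72 h in every library. Over the loci of these markers, 2 of 23 locus peaks rose (8.70%) and 3 fell (13.04%) for microglia, the falls being the only peak of Csf1r and 2 of 7 at Ptprc. At the other loci 5 of 85 locus peaks rose (5.88%) and 4 fell (4.71%) for neurons, 4 of 65 locus peaks rose (6.15%) and 5 fell (7.69%) for oligodendrocytes, 2 of 55 locus peaks rose (3.64%) and 2 fell (3.64%) for endothelial and mural cells and 0 of 28 locus peaks rose (0%) and 4 fell (14.3%) for fibroblasts, beside 10.3% and 11.2% of all tested peaks. In such bulk samples, fewer cells of a type and less open chromatin per cell cannot be told apart, and the part of cell composition in the changes was not tested.

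Of a list of 42 genes the study names, which leaves out others such as Nfia and Slc1a2, 38 had a gene-end peak, 6 of which rose and 3 fell. Of all gene-end peaks, 10.4% rose and 9.76% fell. The study used some of the listed genes as known markers and reported others from its own data, so that their count is not independent evidence. The rises were Cxcl10, Gja1, Gpld1, Relb, Osmr and Smad3 (0.32), and the falls Lmbrd1, Zfp217 (-0.62) and Cebpb, a bZIP factor of inflammation (-0.44). The calls at Smad3, Zfp217 and Cebpb were lost without at least 1 library, and edgeR and DESeq2 did not call Cebpb. Stat3, which mediates gp130 signals, held 2001, 2013 and 1864 at 24 h and 1983, 2530.4 and 2465 at 72 h (log2 change 0.24 ± 0.11 (SE), adjusted p = 0.13), Nfkb1 221, 291 and 286 at 24 h and 193, 214 and 260.4 at 72 h (log2 change -0.26 ± 0.15 (SE), adjusted p = 0.22), and Egr1 1292, 1396 and 1386 at 24 h and 1047, 1134 and 1252 at 72 h (log2 change -0.25 ± 0.10 (SE), adjusted p = 0.0754), none of which was called. Thrb, the thyroid hormone receptor beta, was not called at its gene end, while 7 of 25 peaks of its locus rose and 1 fell. Over all loci of these genes, 41 of 275 locus peaks rose (14.9%) and 17 fell (6.18%), beside 10.3% and 11.2% of all tested peaks.

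The sequences of the promoters under gene-end peaks differed in base composition between the directions. For promoters of 300 bases (250 before and 50 after the start), the median GC content was 57.0% for 920 promoters under peaks that rose. It was 68.7% for 785 promoters under peaks that fell and 62.3% for 6993 under peaks that were not called. In untreated cells the values were 56.0% for rises and 67.7% for falls. C/EBP matches (TTGCNNAA) occurred in 10.2% of the promoters under rising peaks, 4.71% of those under falling peaks and 7.69% of all. AP-1 matches occurred in 5.65%, 3.82% and 4.41%, IRF matches in 3.37%, 1.53% and 2.46%, STAT matches in 7.39%, 4.33% and 6.45%, and RUNX matches (TGTGGT) in 13.6%, 8.03% and 11.4%. E-box matches (CANCTG) occurred in 45.5%, 40.4% and 42.4%, TEAD matches (CATTCC) in 11.5%, 8.03% and 11.4% and the short NFI motif (TTGGCA) in 13.8%, 10.3% and 11.4%. The order was the reverse for NF-κB (61.4%, 76.4% and 70.4%) and for NRF2 matches (TGACNNNGC, 14.5%, 16.4% and 15.0%). The CRE (TGACGTCA) occurred in 3.59%, 2.04% and 3.58%, and the full NFI and SRF sites in none of the called promoters. In untreated cells the shares under rises and falls were 10.1% and 5.91% for C/EBP, 8.62% and 3.39% for AP-1 and 3.95% and 1.45% for IRF. They were 7.54% and 4.89% for STAT, 15.4% and 9.20% for RUNX and 48.1% and 38.5% for E-boxes. TEAD gave 14.4% and 9.78% there, the short NFI motif 13.5% and 9.98%, and NF-κB 61.2% and 75.9%. For NRF2 they were 16.2% and 15.4%, the reverse of the order with TNF. GC content differed between the same promoters, and its part in these shares was not tested.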

How the data were processed

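According to the methods and the submitters' processing notes, Trim Galore was used for trimming, Bowtie2 for alignment to mm10, SAMtools to remove mitochondrial reads and MACS2 for peaks, of which blacklisted ones were removed before DiffBind was run. Versions and the settings of the normalisation are not given in the sources used here. Whether reads were shifted for the transposase is not stated. The deposited table of the authors gives a normalised signal per peak and library, whole multiples of 1 read within 0.01 in 100% of values. Of values of 2 to 20 reads 61.8% were odd, so these may not be independent fragments.

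Peaks at 3 reads or fewer in all tagged libraries were removed, then those failing filterByExpr (edgeR 4.0.16, minimum 10 reads). limma 3.58.1 (R 4.3.3, trend) was fitted to log2(value + 1), with 1 mean for each of the 6 groups of the 19 libraries. The p-values were two-sided and Benjamini-Hochberg adjusted over 88688 peaks. Fold changes on this scale understate those of low peaks. The code was checked on simulated data. Named peaks were the 10 calls per direction with the smallest p and no overlap, the 8 loci per direction with the largest called share, the closest gene-end peak of list and study genes, and the 3 differences per direction with the smallest p. Gene positions came from RefSeq (GRCm38.p6, starts for 17492 of 21900 protein-coding genes), and exons and introns were not assigned. A gene-end peak was found for 13327 genes. Some single-gene values of the lists are not reported here. The members, lists and tests were chosen with earlier results of these data known.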

Additional observations from a re-analysis of the deposited data

Results flagged for a closer look

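One result stood out because the treated and untreated cells changed differently by a test of the difference itself. The peak at chr2:172756448-172756948, with Bmp7 as the nearest gene, had a difference of -1.54 on the log2 scale (treated minus untreated change, limma adjusted p = 0.0021), since it was lower at 72 h than at 24 h with TNF, where the 3 libraries of one time did not overlap with those of the other, and higher at 72 h in untreated cells.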

How the results depend on the processing

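The counts of rises and falls with TNF stayed within 1.5 times of 9135 and 9914 under 12 alternatives of scaling, tool, filter and pairing, and rose to 14400 and 15229 with only the compared groups in the fit. Leaving out single TNF libraries gave 5763 to 6661 rises and 6628 to 7686 falls. Positive differences between the treated and untreated change numbered 1 under loess, 18 by DESeq2, 1 with log2(value + 5) and 43 with only the compared groups, against 0. Negative differences numbered 8 under total reads, 7 under loess, 3 by edgeR, 67 by DESeq2, 3 with log2(value + 5), 195 with only the compared groups, 2 under the replicate block of the A numbers and 1 to 2 with single libraries left out, against 1. Peaks shared with the last step were 1904 (rises) and 5108 (falls) under total reads. With single libraries left out, shared falls numbered 1624 to 2103 for the first step and 1818 to 2304 for the last. The gene-end difference was -0.0055 under loess (exact permutation test, p = 0.7) and 0.0118 to 0.0618 with single libraries left out. Of 95 called peaks of the rule and the lists, none changed direction, 55 kept the call in every setting and 40 lost it without at least 1 library, of which 18 also lost it in another setting (16 under the block by A number, 9 under that by title, 5 under total reads, 4 under loess, 1 by edgeR and 1 by DESeq2). Same-numbered TNF libraries did not deviate together (r between -0.0131 and -0.0078 by title, 0.0006 to 0.0060 by A number). These values cannot show whether same-numbered libraries came from the same brain, which is not stated. A replicate block by title gave 8727 rises and 9760 falls, and one by A number 7636 and 8704. The tag and time cannot be told apart, 3 libraries a group limit the differences that could be detected, and the causes of these shifts were not tested.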
